A study of Drosophila melanogaster with 2 samples.

Results

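The regions described here are the 3055 promoter regions of a Drosophila Hr38-GFP ChIP-seq experiment that were listed in the pooled data but did not reach the threshold for reproducible peaks. They are the rows of the pooled list on dm6 that are absent, by chromosome, start and end, from the list of peaks that passed the irreproducible discovery rate (IDR) threshold, and whose summit lies within 500 bp of a transcription start site (TSS) of a protein-coding gene. They make up 3055 of the 19279 pooled regions and 3055 of the 18511 below the threshold. Of the other regions, 382 of the 768 thresholded peaks lay within 500 bp of such a TSS, and 15456 regions below the threshold did not. The regions were thus selected on the pooled score, through the thresholded list, and on the position of the summit, and both are given as a description.

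Chromatin came from whole white prepupae of the transgenic line Hr38-GFP, mixed sex, with a stated age of 48 hours whose starting point the labels do not give. The line stably expresses Hr38 with GFP fused at its C terminus, and the fusion protein was precipitated with an anti-GFP antibody after sonication. There was 1 group of 2 biological replicates, so no comparison between conditions can be made, and the control experiment was not analysed here. Because whole animals were used, a region bound in a few cells and a region bound weakly in many cannot be told apart. The sequencing depth is unknown from the lists, which hold 30000 regions for replicate 1 and 29031 for replicate 2 on the chromosome arms. The score of a region is the authors' own and is compared only within a list, so that values from the replicates are given with their ranks.

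Hr38 is the NR4A-type nuclear receptor of flies, and its vertebrate relatives bind an extended single half-site known as the NBRE. White prepupae form at a pulse of the steroid hormone ecdysone, which acts through a heterodimer of the nuclear receptors EcR and usp, and Hr38 can also pair with usp. IDR analysis ranks the same regions in both replicates and keeps those whose ranks are reproducible. Regions passed to it include background by design, so that a region below its threshold is a listed region and not a called peak.

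Sequence from 6 promoters shows what stretches such regions span. For each motif, the highest-scoring region that met every condition was taken. It had to overlap both replicate lists. It also had to carry the motif within 100 bp of its summit and in the 120 bases before the nearest TSS. The 120 bases were taken as unannotated, but those of Btk precede an internal TSS and lie within the annotated span of the gene. Each sequence runs 5′ to 3′ on the strand of the gene, up to the base before the TSS, on the dm6 (release 6) assembly, with the motif in capitals in either orientation. Syx17, a SNARE of autophagosome fusion, shows the NBRE (AAAGGTCA) at chr3L:4403367-4403486, plus strand. BORCS6, a subunit of a lysosome-positioning complex, shows the nuclear receptor core AGGTCA at chr3L:540731-540850, plus strand. Bem46, which shares its region with the chromatin remodeller gene Chd1, shows the DRE (TATCGATA), the element bound by DREF, at chr2L:2987996-2988115, plus strand. CG6966 shows motif 1 (GGTCACAC), bound by M1BP, at chr3R:15095632-15095751, minus strand. Btk, a Tec-family tyrosine kinase gene, shows a GAGA element (GAGAGAG) at chr2L:8277703-8277822, minus strand, and CG1965 an AP-1 site (TGANTCA) at chr3R:7067281-7067400, plus strand.
Syx17, NBRE: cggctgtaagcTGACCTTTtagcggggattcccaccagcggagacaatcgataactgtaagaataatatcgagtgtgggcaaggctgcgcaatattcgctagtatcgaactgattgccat
BORCS6, nuclear receptor core: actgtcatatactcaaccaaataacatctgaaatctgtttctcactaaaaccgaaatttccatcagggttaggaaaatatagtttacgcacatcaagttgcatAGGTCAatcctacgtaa
Bem46, DRE: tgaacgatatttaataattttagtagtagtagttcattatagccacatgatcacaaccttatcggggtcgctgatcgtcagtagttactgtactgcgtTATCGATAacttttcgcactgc
CG6966, M1BP motif 1: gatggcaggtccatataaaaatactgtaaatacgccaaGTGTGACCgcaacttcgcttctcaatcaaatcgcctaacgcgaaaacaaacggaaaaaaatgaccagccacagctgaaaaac
Btk, GAGA: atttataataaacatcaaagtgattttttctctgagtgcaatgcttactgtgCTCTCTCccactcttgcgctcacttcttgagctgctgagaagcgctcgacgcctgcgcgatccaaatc
CG1965, AP-1: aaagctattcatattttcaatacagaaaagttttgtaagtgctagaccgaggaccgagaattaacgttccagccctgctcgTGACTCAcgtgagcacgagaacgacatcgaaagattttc

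The Syx17 region had a pooled score of 39.0, with rank 11362 in replicate 1 and rank 21951 in replicate 2, and its NBRE lay 105 bp upstream of the TSS. The Bem46 region scored 76.4, with rank 907 in replicate 1 and rank 1475 in replicate 2, and its DRE lay 18 bp upstream. The Btk region scored 67.6, with ranks 673 and 880, and the CG1965 region scored 76.1, with ranks 595 and 1063 (replicates 1 and 2). The BORCS6 region scored 63.1, with ranks 1683 and 12834, and the CG6966 region scored 63.9, with ranks 4930 and 772. The printed regions thus differ in how evenly the replicates ranked them, and for the NBRE, regions with higher scores exist that did not meet every condition.

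The pooled scores ran from 28.2 to 77.9 among the promoter regions below the threshold, with a median of 36.6 and quartiles of 31.8 and 45.5. The 382 thresholded promoter peaks ran from 78.0 to 629, with a median of 109. The other regions below the threshold had a median of 34.1. The step at the threshold was small: the highest promoter region below it, at CG8892, scored 77.9, and the lowest thresholded promoter peak, at the gap junction gene Inx3, scored 78.0. Just below the threshold, CG8892 had rank 493 in replicate 1 and rank 5244 in replicate 2. Just above it, Inx3 had ranks 2153 and 464, gry, at 78.1, had ranks 909 and 940, and the ezrin-radixin-moesin gene Moe, at 78.2, had ranks 318 and 11426. Promoter peaks just above the threshold thus included both even and uneven pairs of ranks. The authors' −log10 q had a median of 0.0806 and a maximum of 1.96 below the threshold, against a minimum of 1.95 in the thresholded promoter peaks. A q of 0.05 or lower was given to 101 of the 3055 regions (3.31%), against all 382 thresholded promoter peaks and 0.841% of the other regions below the threshold. The lowest region, at Mitf, a transcription factor gene of lysosomal regulation, scored 28.2 and overlapped neither replicate list.

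The 15 highest regions below the threshold lay at genes of several kinds. MED6, a Mediator subunit, scored 77.4, with rank 1444 in replicate 1 and rank 854 in replicate 2. Smg5, a factor of nonsense-mediated mRNA decay, scored 77.2, with ranks 2660 and 587. BEAF-32, which encodes a boundary element protein, scored 76.3 and was the most even of the 15, with ranks 740 and 764. The zinc finger genes Sry-delta and pita were uneven in opposite ways. Sry-delta, at 76.8, had ranks 539 and 9070, and pita, at 76.5, had ranks 6511 and 505. PPO2, a prophenoloxidase gene of melanisation, was the exception among the 15: its region scored 76.9, ranked 265 in replicate 1, overlapped no region of replicate 2, and had its summit in a coding exon 343 bp downstream of the TSS. Among the 100 highest regions, 96 overlapped both lists, with median ranks of 1214 in replicate 1 and 963 in replicate 2.

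Both replicate lists held an overlapping region for 1493 of the 3055 promoter regions (48.9%), against 378 of the 382 thresholded promoter peaks (99.0%) and 6257 of the 15456 other regions below the threshold (40.5%). The pooled list contains the reads of both replicates, so overlap with them is not an independent check. Of the promoter regions below the threshold, 655 (21.4%) overlapped replicate 1 alone, 831 (27.2%) replicate 2 alone and 76 (2.49%) neither list. The other regions below the threshold leaned the other way, with 35.5% in replicate 1 alone and 20.7% in replicate 2 alone. Where both lists held a region, Spearman's rho of the replicate scores was 0.242 over the 1493 promoter regions, against 0.532 over the 378 thresholded promoter peaks and 0.125 over the 6257 others. The points of each correlation come from the same pair of libraries, and those below the threshold span a narrow range of pooled scores. The IDR threshold itself rests on agreement of the replicate ranks. The higher overlap and rho of the thresholded peaks are therefore no independent result. The 768 highest regions of a replicate list included one that overlapped 174 of the promoter regions (5.70%), and 22 did so in both lists. Of those 22, 21 also shared a base with a thresholded peak, so the high rank may belong to a replicate region that reaches both. Whether the replicate region does so was not checked. In all, 29 of the 3055 regions shared a base with a thresholded peak, and without them the share in both lists was 48.4%.

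The regions were split by pooled score into 10 bins of equal size, bin 1 the lowest. The share in both lists climbed with the score, from 13.4% in bin 1 through 37.3% in bin 5 to 81.0% in bin 9 and 93.8% in bin 10. The position of the summits also differed between low and high bins, but not in steady steps. The upstream share was 44.9% in bin 4, 60.5% in bin 5 and 71.5% in bin 9, and the coding-exon share was 28.9% in bin 4. In bin 1, 44.1% of summits lay upstream of the nearest TSS and 27.5% lay in a coding exon. In bin 10, 77.1% lay upstream and 3.92% lay in a coding exon. Median GC content within 100 bp of the summit was 45.3% in bin 1, 46.3% in bin 4 and 38.3% in bin 10. The highest bin therefore had nearly the upstream share (79.6%) of the thresholded promoter peaks, and a GC content close to theirs (36.3%).

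**Figure D1:**
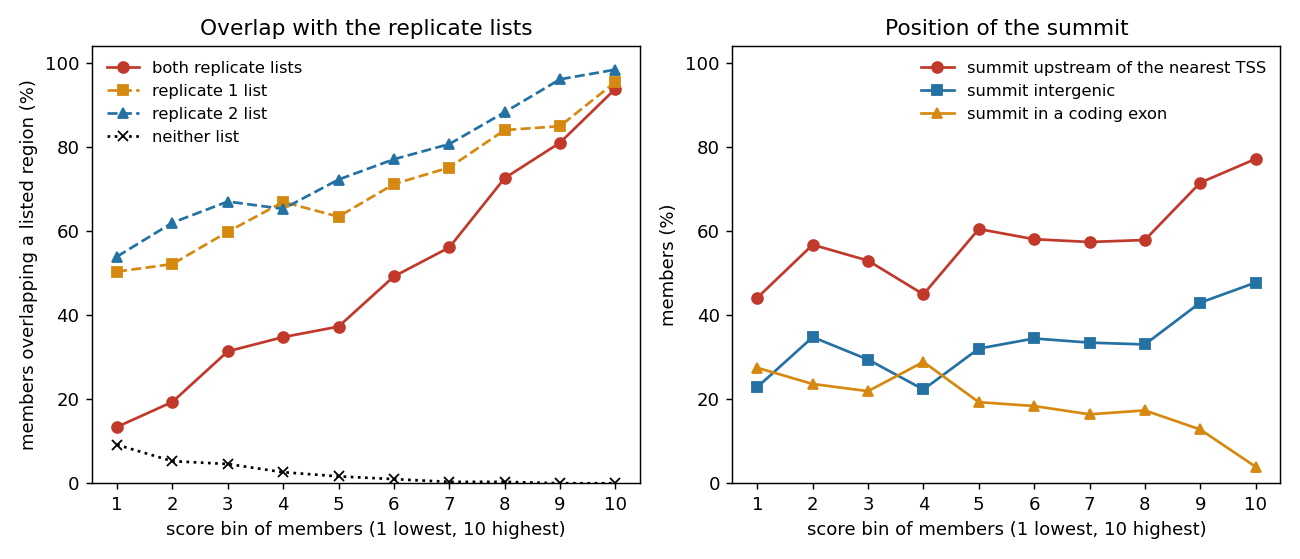
The 3055 promoter regions below the threshold (members) in 10 bins of the pooled score, lowest to highest on the x axis, with the percentage of each bin on the y axis. Left, overlap with the replicate lists: the share in both climbs from 13.4% to 93.8%; right, the share of summits upstream of the TSS reaches 77.1% while the share in coding exons ends at 3.92%.

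The regions found in a single replicate differed in base composition by which replicate it was. Those in replicate 1 alone had a median GC content of 48.3%, with 218 of 655 summits (33.3%) in coding exons and 47.0% upstream of the TSS. Those in replicate 2 alone had a median of 41.3%, with 113 of 831 (13.6%) in coding exons and 58.5% upstream. Their pooled scores were alike, with medians of 33.0 and 33.4 for replicates 1 and 2. All promoter regions of each replicate list showed the same contrast at low ranks. From rank 9001 to 15000, median GC content was 47.3% in 702 promoter regions of replicate 1 and 41.8% in 1075 of replicate 2, while among the 768 highest regions it was 37.8% and 36.8%. Whether GC content has a part in which regions reached the lists was not tested.

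Promoters took a falling share of each list from high to low ranks. In the pooled list, 49.7% of the 768 thresholded peaks were promoter peaks, and below the threshold the share was 39.5% at ranks 769 to 1500, 25.9% at 1501 to 3000, 17.6% at 3001 to 6000 and 12.6% at 15001 to 19279. Replicate 1 had 25.5% at ranks 769 to 1500 and 11.6% at 15001 to 19279. Replicate 2 had 40.8% and 16.8% in the same ranges. The fall was thus present in each replicate, and replicate 2 held more promoter regions than replicate 1 at every range of ranks.

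**Figure D2:**
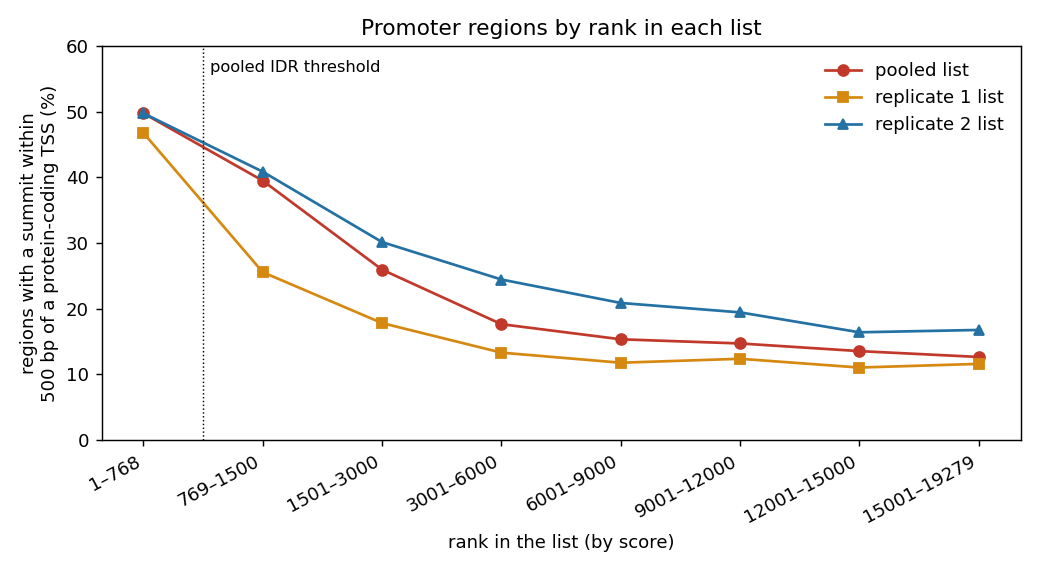
Percentage of listed regions with a summit within 500 bp of a protein-coding TSS (y axis) by range of rank (x axis, highest scores at the left) in the pooled list and each replicate list. All 3 lists start between 46.7% and 49.7% and fall, and the dotted line marks the pooled threshold after rank 768.

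Summits below the threshold were spread wider around the TSS than thresholded ones. Their median distance was 167 bp, against 121 bp for the thresholded promoter peaks, and 1002 (32.8%) lay within 100 bp, against 39.0%. Upstream summits made up 58.1% (1775), against 79.6%. All 3055 regions were 380 bp wide with the summit in the middle, so that the summit is no finer a position than the region. By annotation, 33.3% of the summits were intergenic, 22.3% intronic, 21.6% in a 5′ UTR and 19.0% in a coding exon. Among the thresholded promoter peaks 43.7% were intergenic, 32.7% intronic and 19.9% in a 5′ UTR, and none of the 382 was in a coding exon, against 580 of the regions below the threshold. Regions with a TSS on each strand within 500 bp of the summit made up 17.3% (527), against 40.8% of the thresholded promoter peaks. The direction of these TSSs relative to each other was not checked, so not all such regions need be divergent promoters. Around all 19275 protein-coding TSSs the share was 23.3%, centred on the TSS and not on a summit. Among the regions below the threshold, the share was 34.3% in score bin 10 and 9.48% in bin 1.

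**Figure D3:**
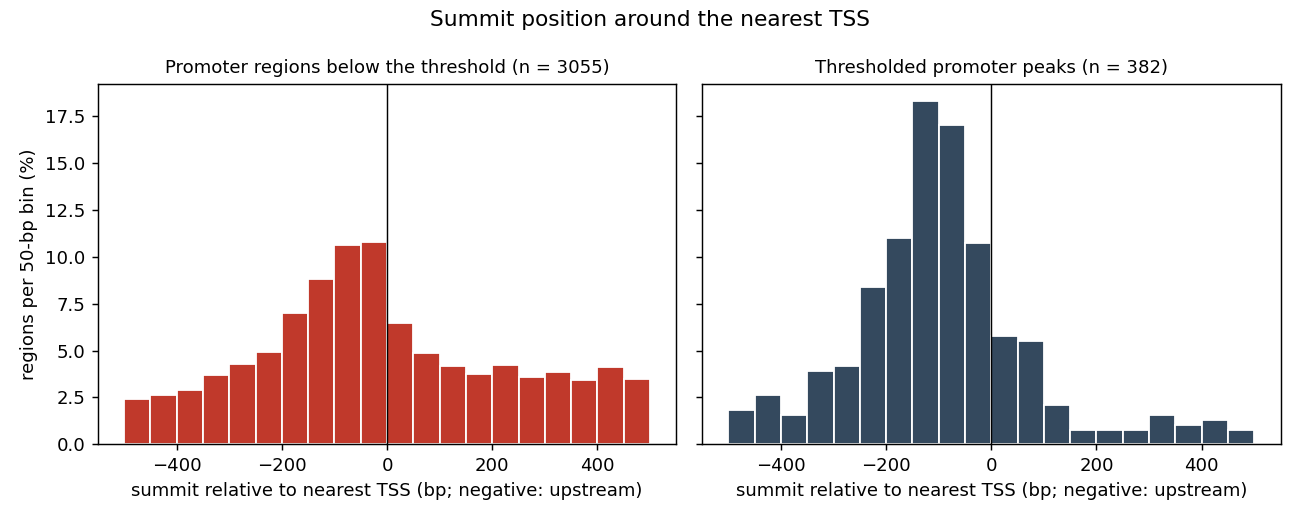
Summit position relative to the nearest protein-coding TSS (x axis, bp, negative upstream) as the percentage of regions per 50-bp bin (y axis), for the 3055 promoter regions below the threshold at left and the 382 thresholded promoter peaks at right. The regions below the threshold peak at 10.8% in the bin just upstream of the TSS and keep about 4% per bin downstream, where the thresholded peaks fall to 0.785% in several bins.

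A region below the threshold lay within 500 bp of a TSS of 3221 of the 13968 protein-coding genes, which is 23.1%. Counting only regions in both replicate lists, the genes were 1669, or 11.9%. Thresholded promoter peaks lay at 548 genes, or 3.92%, and 108 genes had both kinds. A region below the threshold lay at 19.7% of the genes with a thresholded peak and at 23.2% of those without one. The number of TSSs moved with the count: 18.5% of genes with 1 TSS had a region, 29.8% with 2, 45.5% with 3 or 4, and 67.9% with 5 or more. Most genes with a region, 2855, had 1, while 301 had 2 and 65 had 3 or more. The most, 7, lay at mtd, an oxidation-resistance gene with 11 annotated TSSs, and 5 each lay at dnc, which encodes a cAMP phosphodiesterase, and at Btk. The 5 regions at Btk show how uneven such a set can be: the highest scored 67.6 and had ranks 673 and 880, and the other 4, scoring 28.5 to 46.7, overlapped replicate 2 alone. Of the 5 at dnc, the highest scored 75.7 with ranks 599 and 5267, and the lowest scored 28.6 and overlapped replicate 1 alone. Genes still named by a CG number were nearest to 36.2% of the regions, against 28.5% of the thresholded promoter peaks and 43.7% of all genes.

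Gene lists are described by how many of their genes had a region below the threshold, beside the 23.1% over all genes and the share among all genes with the same numbers of TSSs. The lists were made with earlier results from these data known, and no test sets them apart from other genes. Of 21 nuclear receptor genes, 12 had a region (57.1%), while genes with the same numbers of TSSs had one in 34.4% of cases, and 6 of the 12 had one in both replicate lists. Their share was 33.3% counting only regions that overlap replicate 1 and 52.4% for replicate 2, while all genes had 16.6% and 18.0%. Within 250 bp of a TSS it was 38.1%, beside 15.6% of all genes. Thresholded peaks lay at 3 of the 21, namely ERR, Eip75B and Hr96. The genes with neither were 7, among them tll, svp and dsf.

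The ecdysone receptor gene EcR had the highest region of the family, 191 bp upstream of a TSS, with a pooled score of 71.9, a rank of 4984 in replicate 1 and a rank of 507 in replicate 2. Another EcR promoter, with its summit 452 bp upstream of the TSS, scored 50.8 with ranks 14909 and 985. A further EcR region scored 36.4, and it overlapped the same replicate regions as the highest. The gene of its partner usp scored 68.1, 202 bp upstream, with ranks 785 and 1950. Both genes of the heterodimer thus had a region in score bin 10, EcR ranked higher in replicate 2 and usp higher in replicate 1. Hr83 scored 53.3 with ranks 897 and 14852, and its summit lay in a coding exon with a GC content of 68.7%. Hr78 scored 49.1 with rank 1656 in replicate 2 and no region in replicate 1.

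Hr38 itself had 1 region, on chromosome 2L 167 bp upstream of its TSS. The region scored 39.8, the summit sequence had a GC content of 64.7%, and the ranks were 9086 and 1428. Whether the tagged transgene itself added reads at this locus was not tested. Among the genes of the ecdysone-induced cascade, Hr4 had 2 regions, which scored 46.7 (ranks 8756 and 2465) and 38.8 (replicate 2 alone, rank 887). Hr3, a receptor of the mid-prepupal cascade, scored 35.1 in replicate 2 alone, with a summit 500 bp away, and the closest TSS was that of Hdc, a histidine decarboxylase gene. The competence factor gene ftz-f1 scored 30.2 in replicate 2 alone, with rank 2730. Hr39 scored 30.5 and Hnf4 36.5, both in replicate 2 alone, while ERR scored 32.6 in replicate 1 alone. The eg gene had 2 regions, scoring 41.0 and 30.1, with a replicate region in both lists for each. Of the 16 regions at nuclear receptor genes, 9 overlapped both lists, 6 replicate 2 alone and 1 replicate 1 alone, and 14 lay upstream of the TSS. Beside the 56.2% in both lists and 87.5% upstream here, the shares over all 3055 regions were 48.9% and 58.1%.

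**Figure D4:**
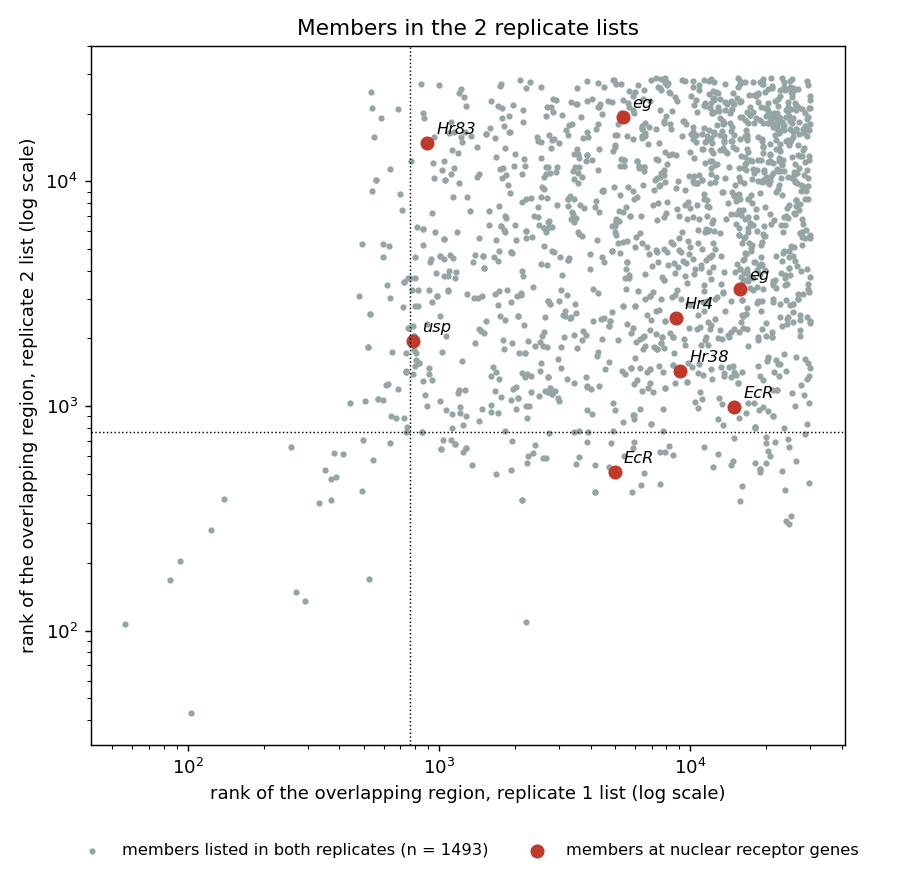
Rank of the overlapping region in the replicate 1 list (x axis) and in the replicate 2 list (y axis), both on log scales with rank 1 the highest score, for the 1493 members (promoter regions below the threshold) listed in both; regions at nuclear receptor genes are labelled. Dotted lines mark rank 768. The points in the lower left corner are mostly regions that share a base with a thresholded peak (21 of the 22 inside both lines), and 1 point is drawn for the 2 EcR regions that overlap the same replicate regions.

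The ecdysone cascade list, which also holds enzymes and early genes, had a region at 9 of 27 genes (33.3%), close to the 32.5% of genes with the same numbers of TSSs. Its highest gene that is no receptor was Eip93F, a regulator of metamorphosis, at 56.4 with ranks 7811 and 3624. The list of activity-regulated transcription factors, the setting in which Hr38 and its relatives are known as immediate early genes, had a region at 6 of 11 genes (54.5%, against 30.0% of genes with the same numbers of TSSs). All 6 had one in both replicate lists, and within 250 bp of a TSS the share was 36.4%, beside 15.6% of all genes. Among these, the ATF4 homologue crc scored 57.4 (ranks 6122 and 1307), CrebA scored 55.6 (ranks 2605 and 5182) and Mef2, a muscle and neuronal regulator, scored 53.4 (ranks 19902 and 2341). Hox and segmentation genes had a region at 11 of 26 (42.3%, against 25.9%), led by the gap gene hb at 66.3 (ranks 20298 and 633) and by bcd, a maternal gene, at 59.0 (ranks 3133 and 2032). Chromatin regulators had one at 15 of 42 (35.7%, against 26.6%). Of their 17 regions, 9 were in both lists and the other 8 in replicate 2 alone, beside 48.9% and 27.2% of all 3055 regions. Counting only regions that overlap replicate 1, the share was 19.0%, beside 16.6% of all genes.

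Autophagy genes had a region at 9 of 20 (45.0%, against 22.3% of genes with the same numbers of TSSs). Of the 9, 7 had one in both lists, and within 250 bp of a TSS the share was 25%, beside 15.6% of all genes. Atg13, of the initiating kinase complex, scored 50.3 (ranks 3835 and 12353), and Atg9, the membrane protein of the pathway, scored 43.1 (ranks 1717 and 21546). Atg2, a lipid transfer protein gene, scored 47.0, but its region shared a base with a thresholded peak. Its ranks of 442 and 1035 may therefore not be its own alone. The same holds for Vps33B (ranks 56 and 107), Nup98-96 (ranks 332 and 372) and eIF4EHP (ranks 1036 and 705) in the lists of sorting, nuclear pore and translation initiation genes. Ubiquitin-conjugating enzymes had a region at 5 of 9 genes (55.6%, against 24.0%), led by Ubc6 at 58.4 in replicate 2 alone. Their share within 250 bp was 22.2%, beside 15.6% of all genes. Rab GTPases had one at 10 of 28 (35.7%, against 27.1%), of which 3 had one in both lists, led by Rab40 at 69.3 (ranks 12317 and 536). The Rab share was 21.4% within 250 bp (15.6% of all genes), and also 21.4% counting only regions that overlap replicate 1 (16.6%).

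Most lists of genes used by every cell had shares near that of all genes. Cytosolic ribosomal protein genes had a region at 28 of 92 (30.4%, against 26.7% of genes with the same numbers of TSSs), with RpS4 highest at 74.1 (ranks 908 and 1385). Mitochondrial ribosomal protein genes had one at 18 of 73 (24.7%), but by the nearest TSS alone the share was 6.85%, beside 19.2% of all genes. Most of these regions lay closer to a TSS of a neighbouring gene. Proteasome subunits had one at 10 of 48 (20.8%), oxidative phosphorylation genes at 17 of 86 (19.8%), sorting genes at 11 of 54 (20.4%) and Mediator and TAF genes at 10 of 44 (22.7%). Apart from the cytosolic ribosomal proteins, these shares lie within 5 percentage points of the 23.1% over all genes. Aminoacyl-tRNA synthetases, with 5 of 32 (15.6%, against 21.8% of genes with the same numbers of TSSs), were lower. DNA replication genes had 1 of 15 (6.67%, against 20.0%), Mcm2, at 70.9 with ranks 1198 and 1175. Of all 3055 regions, 48.9% overlapped both lists, 27.2% replicate 2 alone and 21.4% replicate 1 alone. At ribosomal protein genes the share in both lists was lower, at 34.5% for cytosolic and 22.2% for mitochondrial genes. Of the 29 at cytosolic genes, 10 overlapped both lists, 13 replicate 2 alone and 5 replicate 1 alone. Of the 18 at mitochondrial genes, 4 overlapped both, 10 replicate 2 alone and 4 replicate 1 alone.

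Lists of genes of differentiated tissues and general lists both varied in how many summits lay inside coding exons, beside 19.0% over all 3055 regions. Chemosensory receptor genes had one at 22 of 179 (12.3%, against 19.8% of genes with the same numbers of TSSs), and 15 of their 23 regions had the summit in a coding exon. Within 250 bp, and likewise counting only regions that overlap replicate 2, their share was 5.59%, beside 15.6% and 18.0% of all genes. Cuticle protein genes, of the exoskeleton, had one at 24 of 122 (19.7%, against 19.6%), with 11 of 25 regions in coding exons. Their share within 250 bp was 9.84%, beside 15.6% of all genes. Among the general lists, sorting genes had 11 of 11 regions upstream of the TSS in intergenic sequence and proteasome genes had none of 10 in coding exons, while oxidative phosphorylation genes had 6 of 18 in coding exons and V-ATPase genes 4 of 10. The chorion and vitelline membrane list, of eggshell genes, had a region at 5 of 9 genes (55.6%, against 19.7%), led by Vm26Aa at 64.1 (ranks 2051 and 1081). Its share was 22.2% within 250 bp and 33.3% counting only regions that overlap replicate 2, beside 15.6% and 18.0% of all genes. Of its 6 regions, 5 were in coding exons, none was upstream, and the median GC content was 67.7%. Cytochrome P450 genes had a region at 16 of 83 (19.3%), led by Cyp6a2 at 55.9, with 2 of 18 regions in coding exons, and odorant-binding protein genes at 11 of 51 (21.6%), led by Obp83g at 53.2. Glue and late puff genes, which serve the salivary gland, had a region at 3 of 24 (12.5%, against 18.5%). These were 2 regions in replicate 1 alone, the highest at Sgs8 with 37.0 and the other shared by Eig71Eh and Eig71Ei. Heat shock genes had one at 3 of 24, with Hsc70-4 at 67.4 and Hsp26 at 52.7. Antimicrobial peptide genes had none of 21, which allows a share of up to 14.3% by the limit of 3 counts. Genes with the same numbers of TSSs had 18.5%. Histone genes had 1 of 115 (0.870%, against 18.9%), at His3.3B. The copies of the replication-dependent histone genes are nearly identical, and whether reads that map to several copies were counted is not given in the sources used here, so this count is uncertain.

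**Figure D5:**
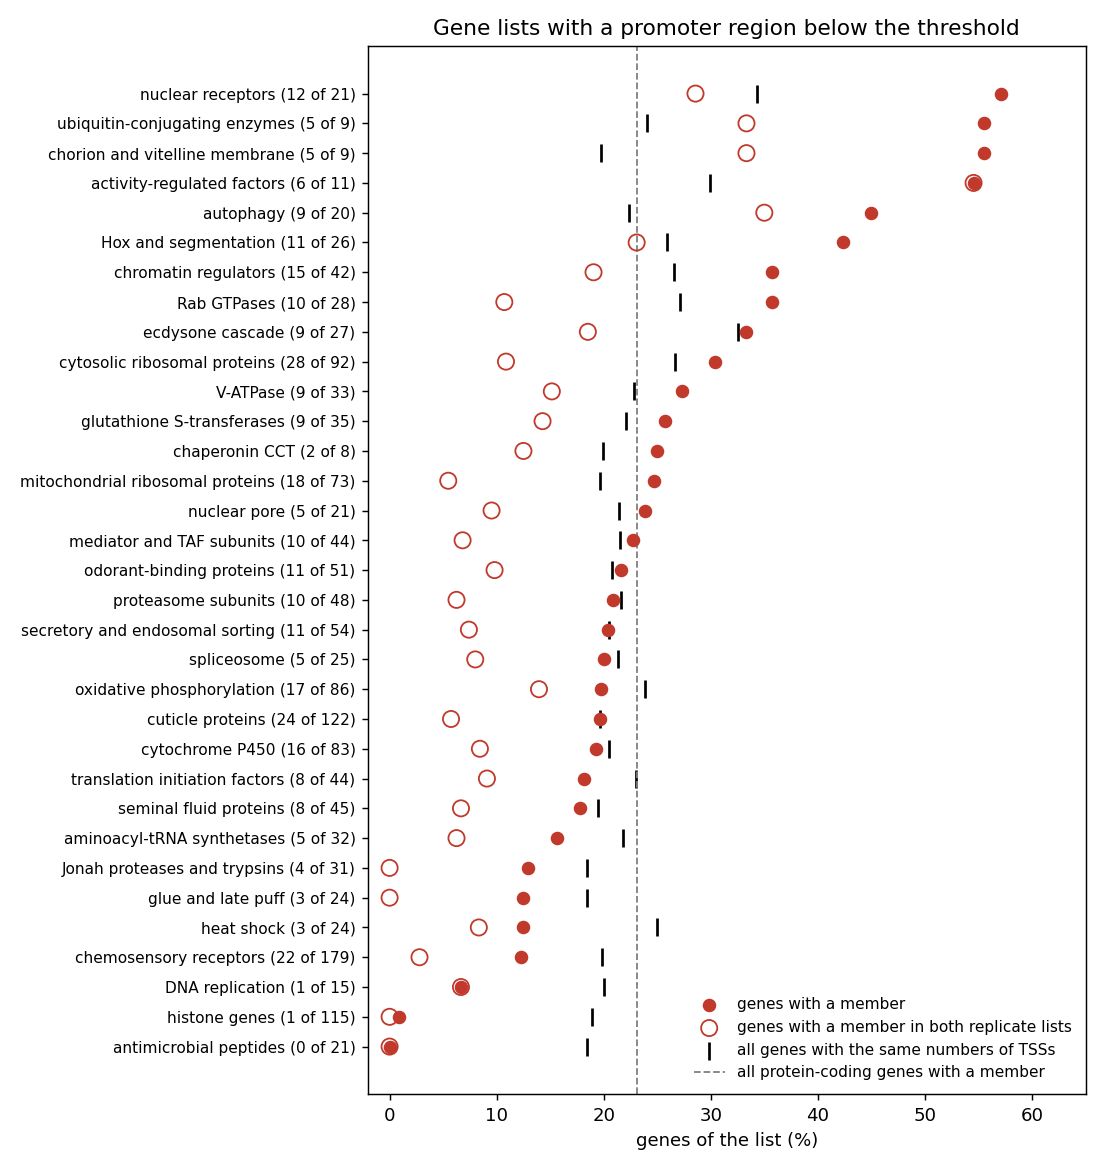
Percentage of each gene list (x axis) with a promoter region below the threshold (filled circles) and with such a region in both replicate lists (open circles), with the number of genes beside each name. Black ticks give the share among all genes with the same numbers of TSSs, and the dashed line gives the 23.1% over all genes. Nuclear receptors stand at 57.1% and chemosensory receptors at 12.3%.

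Motifs were looked for in both orientations no more than 100 bp from each summit and, for all protein-coding TSSs, within 100 bp of the TSS, so that the last set is centred differently. The NBRE was found in 23 of the 3055 regions, or 0.753% (95% Wilson interval 0.502 to 1.13, counting error only). The share was 0.262% (1 of 382) in the thresholded promoter peaks, 0.660% in the other regions below the threshold and 0.389% at all TSSs. In 3 classes of equal size by score, the NBRE was in 0.785% of the lowest, 0.589% of the middle and 0.884% of the highest, with intervals that overlap. The core AGGTCA, which lies within the NBRE, within the FTZ-F1/ERR site (CAAGGTCA) and within the EcRE pair of inverted half-sites, was in 4.45%, against 2.88% of the thresholded promoter peaks, 5.36% of the other regions and 3.26% of all TSSs. The FTZ-F1/ERR site was in 0.524%, and the EcRE pair in none of the 3055, which allows a share of up to 0.0982% by the limit of 3 counts, or 0.126% as the Wilson upper bound. Sites of the Hr38 type were thus rare in the promoter regions on either side of the threshold.

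The DRE, motif 1, the initiator core and the TATA element were less frequent around these summits than around TSSs. The DRE was in 3.18% of the regions, against 3.40% of the thresholded promoter peaks, 0.220% of the other regions and 6.44% of all TSSs. Its share was 2.06% in the lowest of the 3 score classes, 3.05% in the middle and 4.42% in the highest. Motif 1 was in 2.03%, against 1.83% of the thresholded promoter peaks, 0.375% of the other regions and 5.68% of all TSSs. The initiator core TCAGT was in 31.1%, against 36.1%, 28.2% and 43.4% of the same sets, and TATAAA in 21.9%, against 32.2%, 14.7% and 26.9%. The GAGA element was in 6.25%, against 6.02%, 3.14% and 4.68%. AP-1 sites were in 3.80%, against 4.19%, 3.67% and 3.79%, and the E-box CAGCTG in 368 of the 3055, against 14.4%, 11.7% and 13.4%. The AP-1 shares of the 4 sets were thus close to each other. GC content differed between the sets and moves with how often a motif of given letters occurs, and its part in these shares was not tested.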

How the data were processed

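Peak lists of 1 group with 2 biological replicates were analysed. Per the file headers and labels, the authors deposited lists of peaks and background made as input for IDR for each replicate and for the pooled data, and an IDR-thresholded list, on dm6 and dm3. Which peak caller, aligner and IDR threshold they used, and the read depth, the sources used here do not give. Each row holds the authors' score, the deposited −log10 q-value and the deposited summit offset from the start of the region, used as they stand. The thresholded peaks were the 768 highest pooled scores.

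Regions on the chromosome arms were used, and 5 replicate regions outside them were left out. TSSs are the starts of all transcripts of protein-coding genes in Ensembl release 115, on the same assembly as dm6. Sequence came from the RefSeq dm6 genome. A shared base counted as overlap, and the best-ranked overlapping replicate region gave the rank. A gene had a region when a summit lay within 500 bp of any of its TSSs. Tables were made with pandas 2.3.3 and numpy 2.4.6 under Python 3.11.15, Spearman's rho with scipy 1.17.1 and figures with matplotlib 3.10.9, and the functions were tested on simulated regions.

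Regions, gene lists and motifs were chosen with earlier results of these data known, and 3 list patterns were corrected by name after the files were read. Named genes are those nearest to the 15 highest and 3 lowest regions and the 3 lowest thresholded promoter peaks, up to 3 per gene list, all nuclear receptor genes and the 3 genes with most regions; other names were chosen after their values were seen. Not every gene under this rule is reported here. No test was run, since the regions were selected on the pooled score. Distances, overlaps, score floors, single replicates, motif windows and dm3 were tried as alternatives.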

Additional observations from a re-analysis of the deposited data

How the results depend on the processing

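With 1 group there was no contrast, and no paired analysis was possible because no groups are compared. The number of regions was 2009 within 250 bp of a TSS and 4947 within 1000 bp, against 3055 within 500 bp, 1528 above the median score (by construction), and 3026 without those that share a base with a thresholded peak. The share in both replicate lists, 48.9%, was 41.3% where at least 50% of both regions had to be shared, 41.8% where the summit had to lie inside the replicate region, 18.7% with the 10000 highest regions of each list, 46.4% within 1000 bp and 49.9% within 250 bp. Leaving out a replicate gave 70.3% to 76.1%. The share of genes with a region, 23.1%, was 15.6% within 250 bp, 34.8% within 1000 bp, 19.2% by the nearest TSS only, 12.7% above the median score, and 16.6% to 18.0% with a single replicate.

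Of the 12 motif shares, 11 were lower within 50 bp of the summit, of which 10 left the 95% Wilson interval, and 11 were higher within 250 bp and left it. Centring on the middle of the region changes nothing, since every summit is the middle. On dm3 the pooled regions below the threshold numbered 17808, against 18511 on dm6. The read depth is unknown, so a region absent from a replicate list may be missing for lack of reads. The leaving out of the 29 regions beside thresholded peaks was chosen after seeing the data.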

Other observations

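The genes of the chromosome arms had a promoter region below the threshold at like rates on the large autosomes, with 22.6% on 2L, 24.4% on 2R, 23.2% on 3L and 24.9% on 3R, and at 19.3% on the X. The X was also below these arms in each replicate list taken alone, with a promoter region at 24.6% of its genes in replicate 1 and at 32.4% in replicate 2. The animals were of mixed sex, and the part of X copy number in this was not tested. The small chromosome 4 had a region at 13 of its 80 genes (16.2%). Its genes had a promoter region in 8.75% of cases in the replicate 1 list and in 57.5% in the replicate 2 list, a wider gap between the replicates than on any other arm. No region below the threshold, at a promoter or elsewhere, lay on the Y, so none of its 23 genes had one. Neither replicate list held a promoter region at a Y gene.

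Genes with a region below the threshold were longer than the others, with a median of 3003 bp against 1996 bp. The median number of TSSs was 1 in both, but a region lay at 18.5% of genes with 1 TSS and at 67.9% of those with 5 or more. The part of TSS number in the difference in length was not tested. The regions lay far from thresholded peaks as a rule: the median distance to the nearest thresholded summit was 41983 bp, and 70 of the 3055 lay within 1000 bp of one. Another region below the threshold at a promoter lay within 1000 bp for 454 (14.9%).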
